A study of Mus musculus with 2 samples.

Results

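The 10 genes described here carry the LIF and FGF signals that act on mouse embryonic stem cells (mESCs): Lifr, Il6st, Stat3 and Socs3 on the LIF side, and Fgf4, Fgfr1, Fgfr2, Spry2, Spry4 and Dusp6 on the FGF side. They were chosen by name from the 21938 protein-coding genes of GENCODE release 21 for mouse, which uses build mm10. For each gene, the ATAC-seq peaks covering the gene start and all peaks from 20 kb upstream to 20 kb downstream of the gene were taken from a list of 116782 peaks. The rule that picks the peaks uses no measured value.

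LIF binds a receptor made of LIFR and the shared subunit IL6ST (gp130), and the receptor activates JAK kinases that phosphorylate STAT3. Phosphorylated STAT3 enters the nucleus and holds mESCs in self-renewal, and its target SOCS3 switches the receptor off again. FGF4, which mESCs make themselves, binds FGF receptors and signals through Ras and the MAPK cascade to ERK, a signal that prepares mESCs to leave the naive state. Sprouty proteins and the ERK phosphatase DUSP6 are induced by this pathway and dampen it.

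The cells were EHMT2-dTAG mESCs (line EHMT2-dTAG-mcherry, BL6/129 hybrid), in which the histone methyltransferase EHMT2 carries a degron tag. They were kept on feeder cells, which were mouse embryonic fibroblasts, in serum medium with LIF. Treatment was for 24 h with DMSO, the solvent, so EHMT2 was not degraded. Open chromatin was measured by ATAC-seq, in which Tn5 transposase inserts sequencing adapters where DNA is free of nucleosomes, on 50000 cells of each of 2 independent clones. The deposited peaks were called on both clones merged, so no value has a replicate error and no test between samples was possible. For each peak, the number of fragments over its summit was calculated from the deposited fold enrichment and p-value, and the 95% exact Poisson intervals of these numbers cover counting error only.

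Of 8 mESC marker genes, 7 had a peak over a coding start, among them Pou5f1, Nanog and Zfp42, and the nearest peak to Sox2 lay 130 bp from its start. These 7 peaks had 12 to 151 fragments (median 44), with 12 at Esrrb, 17 at Pou5f1 and 40 at Nanog. Their fold enrichments ran from 2.83 at Pou5f1 to 15.9 at Zfp42. Of 8 fibroblast markers, which would mark feeder cells, 3 were covered (Col1a2, Thy1 and Twist2, with 11 to 23 fragments), and Col1a1, Col3a1, Postn, Lum and Dcn were not. The covered fibroblast markers had fold enrichments of 4.74 to 7.5, so both measures overlapped between the marker lists. Of all genes with a coding start, 66.4% had a peak over one, with medians of 34 fragments and a fold enrichment of 8.68. The part of feeder cells in the peaks below was not tested.

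Peaks covered the start of the gene record for 7 of the 10 genes, beside 59.2% of all protein-coding genes. Socs3, Fgf4 and Spry2 were the exceptions, with the nearest peak 318, 772 and 266 bp away. The gene record runs from the outermost end of any annotated transcript, and for 5 of the 10 genes it began more than 500 bp from the outermost start of a transcript with a consensus coding sequence (CCDS), as it did for 8.56% of 20331 genes with such transcripts. The record of Fgfr2 began 2857087 bp upstream, at the start of Ctbp2, which was the largest such distance among these genes. The distances were 38945 bp for Lifr, 14019 bp for Fgf4, 5105 bp for Fgfr1 and 861 bp for Socs3. The starts of CCDS transcripts, here called coding starts, were therefore added after these data were seen. A peak covered a coding start of 9 of the 10 genes, beside 66.4% of all genes with one. A peak with a −log10 q-value of at least 10 covered a coding start of the same 9 of 10 genes, beside 50.6% of all genes with a coding start. Of all peaks over coding starts, 73.7% were that strong. Spry2 alone was uncovered. Each of the 10 genes had a peak within 1000 bp of a coding start, beside 71.7% of all genes.

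The choice of start changed what was seen at the receptors. The peak over the record start of Lifr had 8 fragments (3.45 to 15.8) and the one over its coding start 46 (33.7 to 61.4). At Fgfr1 the numbers were 10 (4.80 to 18.4) and 55 (41.4 to 71.6). For both receptors the intervals did not overlap. The peak at the record start of Fgfr2, with 27 fragments (17.8 to 39.3), belonged to Ctbp2, and its coding start had 35 (24.4 to 48.7). All values below are for coding starts unless the record is named.

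**Figure D1:**
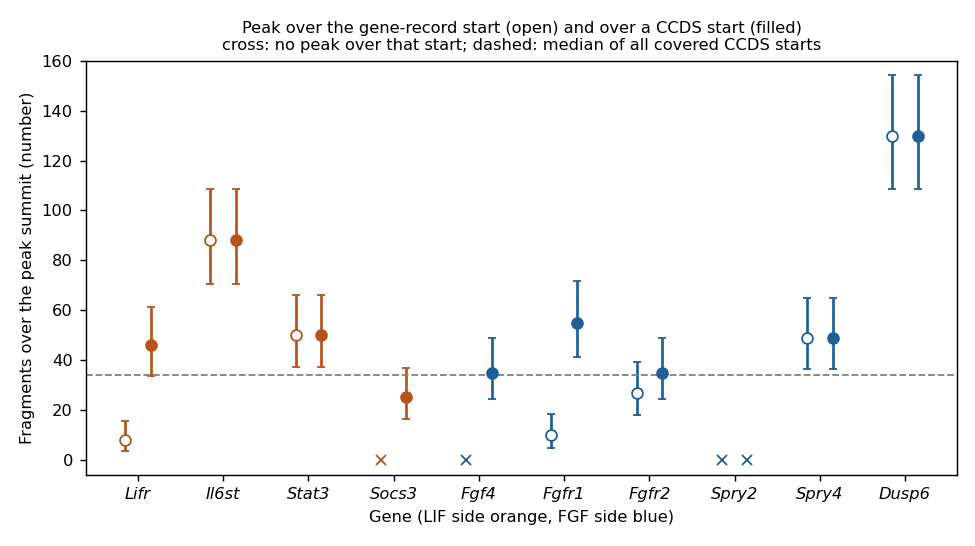
Fragments over the summit of the peak at the gene-record start (open circles) and at a coding start (filled circles) of each gene, with 95% exact Poisson intervals as bars, crosses for starts without a peak, and a dashed line at 34 fragments, the median of all covered coding starts. Lifr rises from 8 to 46 and Fgfr1 from 10 to 55 between the starts, Socs3 and Fgf4 gain a peak, and Spry2 has none at either.

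Lifr encodes the LIF-binding receptor subunit. Its peak lay at chr15:7128999-7130107, with the summit 82 bp into the 5′ UTR, a fold enrichment of 7.78 and a GC content of 71.2%. It covered 2 of the 5 coding starts, and the other 3 starts, farther into the gene, lay 4453 to 7303 bp from the nearest peak. The RefSeq promoter at 1 of these inner starts likewise had no base under a peak. The last 150 bases before the RefSeq start under this peak (build mm10, plus strand, chr15:7129422-7129571) are shown because they hold a pair of GC boxes. In this and the following promoters, capitals mark the GC box (GGGCGG) and the CCAAT box (CCAAT) on either strand.
Lifr promoter: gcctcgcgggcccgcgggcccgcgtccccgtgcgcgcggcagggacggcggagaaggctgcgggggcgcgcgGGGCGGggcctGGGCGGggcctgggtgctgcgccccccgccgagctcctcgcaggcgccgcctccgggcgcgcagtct

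The highest peak of the Lifr window away from a coding start was upstream, at chr15:7115276-7117241, 12568 bp before the start. It had 51 fragments (38.0 to 67.1) and a fold enrichment of 8.41, and its fragment interval overlapped that of the start peak. Unlike the start peak, it had a GC content of only 41.7%. Of its bases, 6.05% were repeat-masked, beside 3.97% in the start peak. Further peaks lay in introns 3352 bp (35 fragments) and 38582 bp (26 fragments) after the start. An intron peak 4991 bp after the start had the lowest fold enrichment of all windows, 2.56, with 12 fragments. By gene record, the window held 3 more peaks, the highest with 27 fragments and a fold enrichment of 8.43.

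Il6st encodes gp130, the signal-transducing subunit. Its start peak, at chr13:112463662-112464326, had 88 fragments (70.6 to 108) and a fold enrichment of 12.0, with the summit 7 bp before the start. It covered 2 of 3 coding starts, and the third, inside the gene, lay 1719 bp from a peak. The promoter (plus strand, chr13:112463920-112464069) is shown for its GC box and pair of CCAAT boxes.
Il6st promoter: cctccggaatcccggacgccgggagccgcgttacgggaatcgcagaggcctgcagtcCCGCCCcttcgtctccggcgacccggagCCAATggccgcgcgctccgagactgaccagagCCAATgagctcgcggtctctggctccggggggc
A second peak, 1456 bp upstream, had 36 fragments (25.2 to 49.8) and a fold enrichment of 4.96. The remaining 6 peaks of the window, in introns, the 3′ UTR and downstream, had 6 to 12 fragments, near the lowest number in any peak of the list, 6.

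Stat3 encodes the transcription factor at the end of the LIF pathway. Its peak, at chr11:100939066-100940093, had 50 fragments (37.1 to 65.9) and a fold enrichment of 12.4, the highest among the 9 start peaks. All 3 of its coding starts lay under it. The promoter (minus strand, chr11:100939541-100939690) is shown because a CCAAT box and a GC box lie close together.
Stat3 promoter: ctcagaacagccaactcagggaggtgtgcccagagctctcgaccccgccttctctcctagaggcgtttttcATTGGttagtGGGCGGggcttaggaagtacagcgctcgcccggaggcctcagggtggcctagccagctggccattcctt
The rest of the 94.4 kb window held only 2 peaks, 1 in an intron with 6 fragments and 1 located 17976 bp upstream with 7 fragments (2.81 to 14.4) and a fold enrichment of 3.54. With 3 peaks in all, it was the sparsest window among the 10.

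Socs3 encodes the suppressor that inhibits the receptor's JAK kinases. Its start peak, at chr11:117968993-117969729, had 25 fragments (16.2 to 36.9) and a fold enrichment of 5.70, the fewest fragments among the 9 start peaks. The summit lay 222 bp before the coding start. The promoter (minus strand, chr11:117969367-117969516) lies wholly under the peak, and its first bases are the end of the STAT match described further on.
Socs3 promoter: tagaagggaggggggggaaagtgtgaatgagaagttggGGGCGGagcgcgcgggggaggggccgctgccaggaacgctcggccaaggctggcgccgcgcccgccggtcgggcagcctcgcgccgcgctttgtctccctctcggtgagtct
Of the neighboring peaks, 1 that lay 5659 bp downstream of the start (chr11:117963282-117964419) had 40 fragments (28.6 to 54.5) and a fold enrichment of 8.17. Another, 6448 bp upstream (chr11:117974770-117976710, 1941 bp wide), had 27 fragments (17.8 to 39.3) and a fold enrichment of 5.51. The intervals of all 3 overlapped, and a difference in height between the start peak and its neighbors was not tested. A peak of 10 fragments, 17597 bp upstream, covered the start of Pgs1.

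Fgf4 encodes the FGF that mESCs secrete. Its start peak, at chr7:144861007-144861526, had 35 fragments (24.4 to 48.7) and a fold enrichment of 5.39, the lowest fold enrichment among the 9. The promoter (plus strand, chr7:144861236-144861385) is shown for its single CCAAT box, here on the opposite strand.
Fgf4 promoter: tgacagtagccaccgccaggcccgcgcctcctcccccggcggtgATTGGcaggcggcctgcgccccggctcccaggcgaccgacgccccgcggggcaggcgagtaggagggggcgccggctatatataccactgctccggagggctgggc

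The best known control element of Fgf4 is an enhancer in the 3′ UTR of the gene, bound by SOX2 and OCT4 side by side. A peak covered the 3′ UTR at chr7:144864244-144864716, 3139 bp after the start. It had 21 fragments (13.0 to 32.1), with a fold enrichment of 3.96. The −log10 q-value was 6.04. Within 150 bp of its summit lay a SOX match (CNTTGT) followed, after 4 bases, by an octamer match (ATGCNAAT), both in capitals below (plus strand, chr7:144864388-144864417).
Fgf4 3′ UTR site: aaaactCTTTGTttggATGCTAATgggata
Of 72 peaks in the windows of the 10 genes, this was the only one with SOX and octamer matches at most 10 bases apart near the summit, beside 0.408% of all peaks. The center of the pair lay 123 bp from the summit. A peak 3209 bp upstream of the Fgf4 start had 28 fragments (18.6 to 40.5) and a fold enrichment of 4.83. By gene record, the window also held a peak of 10 fragments over the start of Fgf3, the neighboring FGF gene.

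Fgfr1 encodes the main FGF receptor of mESCs. Its start peak, at chr8:25518488-25519609, had 55 fragments (41.4 to 71.6) and a fold enrichment of 10.3, with the summit 68 bp into the 5′ UTR, and it covered all 3 coding starts. The highest other peak, in an intron 26372 bp after the start, had 54 fragments (40.6 to 70.5) and a fold enrichment of 7.49. A second intron peak, 24771 bp after the start, had 45 (32.8 to 60.2) and a fold enrichment of 6.55. The fragment intervals of both internal peaks overlapped that of the start peak, but their fold enrichments were lower. A difference in height was not tested. On chromosome 8, which holds Fgfr1, the median covered coding start had 50 fragments, beside medians of 25.5 to 42 on the other autosomes. The median fold enrichment there, 9.26, lay within the range of the other autosomes, 7.58 to 9.63.

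Fgfr2, a second FGF receptor gene, had a start peak at chr7:130265704-130266668 with 35 fragments (24.4 to 48.7) and a fold enrichment of 6.29. The RefSeq start used for its promoter lies farther upstream, and no base of that 300-base promoter window lay under a peak. An intron peak 1384 bp after the start had 30 fragments (20.2 to 42.8), and one 13908 bp after it had 16 (9.15 to 26.0) with a fold enrichment of 5.52. By coding transcripts, the window of 144 kb held 15 peaks, of which 10 had fewer than 10 fragments. By gene record, it held 170, and the 155 peaks outside the coding window included 19 over starts of other genes. The highest fold enrichment of all windows by record, 14.5, belonged to a peak over the start of Pstk, 1104948 bp from the coding start of Fgfr2.

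Dusp6 encodes the phosphatase that dephosphorylates ERK. Its start peak, at chr10:99262812-99263952, had 130 fragments (109 to 154), more than any other of the 9 start peaks. The local background at Dusp6 was 13.2 fragments, above that of 99.8% of covered coding starts, and the fold enrichment was 9.21. The promoter (plus strand, chr10:99263081-99263230) is shown for its CCAAT box on the opposite strand. It has no GC box.
Dusp6 promoter: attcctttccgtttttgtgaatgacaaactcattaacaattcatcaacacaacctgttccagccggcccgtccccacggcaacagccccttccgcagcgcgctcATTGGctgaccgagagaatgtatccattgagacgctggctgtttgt
A second peak, 1356 bp upstream, had 60 fragments (45.8 to 77.2) and a fold enrichment of 4.25. Downstream of the gene, peaks 7801 and 16806 bp after the start had 15 fragments each, with fold enrichments of 5.13 and 5.37.

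Spry2 encodes a Sprouty inhibitor of the Ras-MAPK cascade, and it was the gene without a peak over its start. The 150 bases before the start (minus strand, chr14:105896820-105896969) hold neither a GC box nor a CCAAT box, and no base of the 300-base RefSeq promoter window lay under a peak.
Spry2 promoter: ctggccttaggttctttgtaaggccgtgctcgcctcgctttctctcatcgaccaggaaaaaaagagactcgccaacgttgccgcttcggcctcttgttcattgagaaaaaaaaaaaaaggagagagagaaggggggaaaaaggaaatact
The start lay between tall peaks. Those 637 bp upstream (chr14:105897085-105898129), 2028 bp upstream and 1795 bp downstream of the start, counted to the summits, had 75 (59.0 to 94.0), 60 (45.8 to 77.2) and 48 (35.4 to 63.6) fragments. Their fold enrichments were only 5.18, 4.38 and 3.46, over a local background of 12.9 to 13.7 fragments. A background this high was found at 0.215% of covered coding starts.

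Spry4, a second Sprouty gene, had the widest peak of the windows, 2125 bp, at chr18:38600849-38602973. It had 49 fragments (36.3 to 64.8) and a fold enrichment of 7.12, and it also covered the start of the noncoding gene AC133601.1. The other 6 peaks of its window, inside the gene or downstream of it, had 8 to 11 fragments. The highest in fold enrichment, 3.55, lay 25132 bp after the start.

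**Figure D2:**
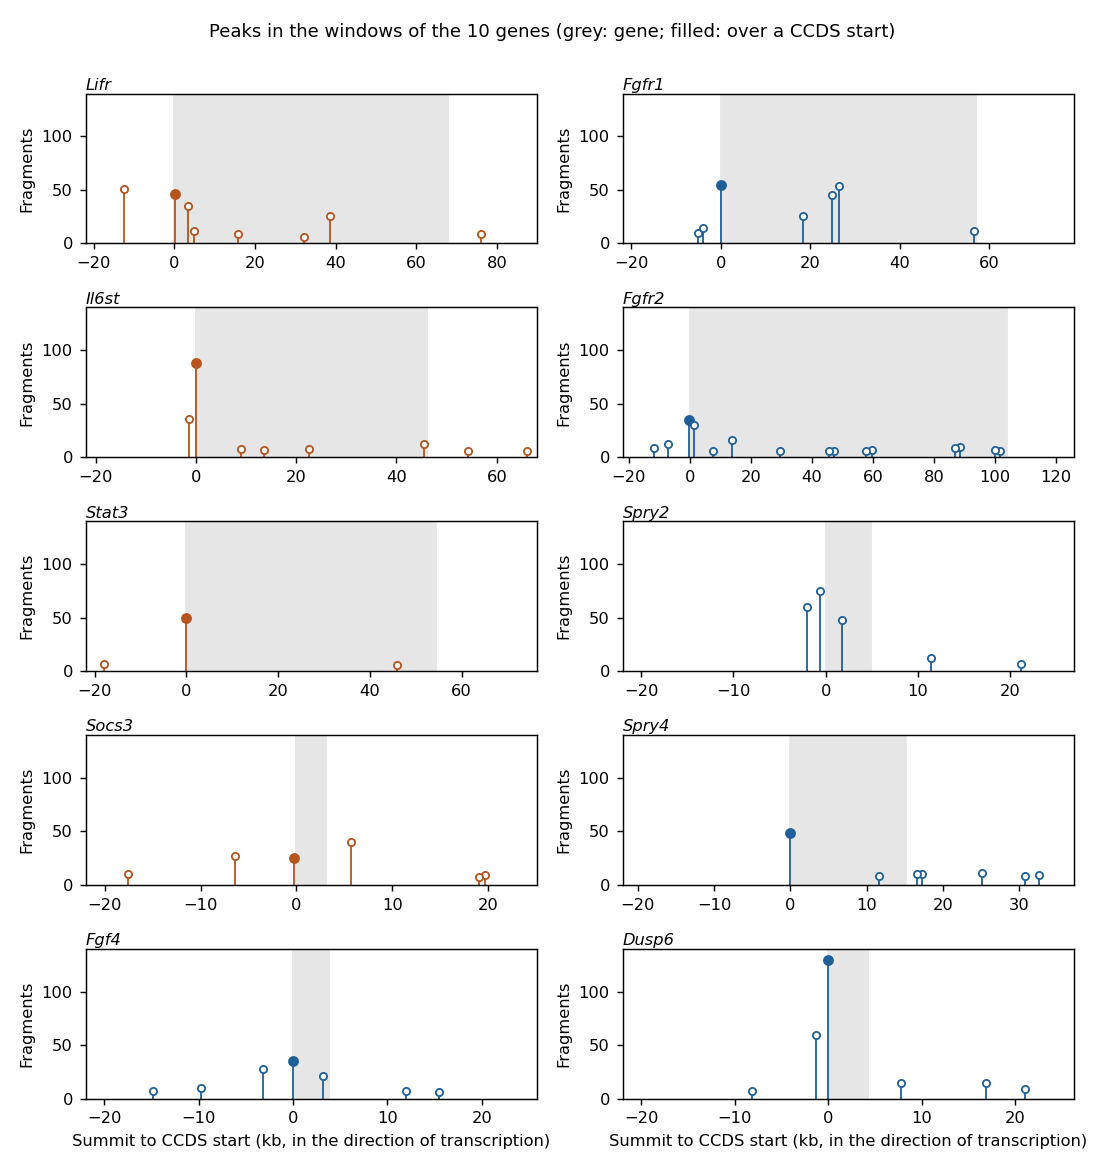
Peaks in the windows of the 10 genes, with the summit's distance from the coding start in kb on the horizontal axis and the fragments over the summit on the vertical axis. Grey marks the gene, and filled circles are peaks over a coding start. Dusp6 stands at 130 fragments, Spry2 has 3 tall peaks around an uncovered start, Fgfr1 has intron peaks of 45 and 54 fragments beside 55 at its start, and Stat3 has a single tall peak.

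Ordered by fragments, the start peaks ran from Dusp6 (130) over Il6st (88), Fgfr1 (55), Stat3 (50), Spry4 (49), Lifr (46), Fgf4 and Fgfr2 (35 each) to Socs3 (25). Of 36 pairs, 20 had overlapping intervals. Dusp6 stood apart from every other gene, although its lower bound and the upper bound of Il6st differed by less than 1 fragment. Il6st overlapped Fgfr1 only, and all genes from Fgfr1 to Fgfr2 in this order overlapped each other. Overlapping intervals do not show that the numbers are alike, and no pair was tested. LIF and FGF genes were mixed along the order.

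The rank of the genes depended on whether fragments or fold enrichment was read. The 9 start peaks had a median of 49 fragments, beside 34 (quartiles 20 to 55) over all 13492 covered coding starts, and 8 of the 9 lay above that median. Their median fold enrichment was 7.78, beside 8.68 (6.15 to 11.6) over all, and 4 of the 9 lay above it: Il6st, Stat3, Fgfr1 and Dusp6. In percentiles of the covered starts, the median gene stood at 68.8 by fragments and at 41.0 by fold enrichment. Dusp6 stood at 97.7 by fragments and 55.4 by fold enrichment, Spry4 at 68.8 and 34.2, and Fgf4 at 51.1 and 17.6. Stat3, at 69.8 and 80.1, was the only one to rank higher by fold enrichment. The fold enrichment divides the pileup by the local background, which is an average of the same fragments around the peak, and all 9 genes lay above the median background of all covered starts, with a median of 5.04 fragments beside 2.96. Background and fragments were both calculated from the deposited fold enrichment and p-value, so the background is not a separate measurement.

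**Figure D3:**
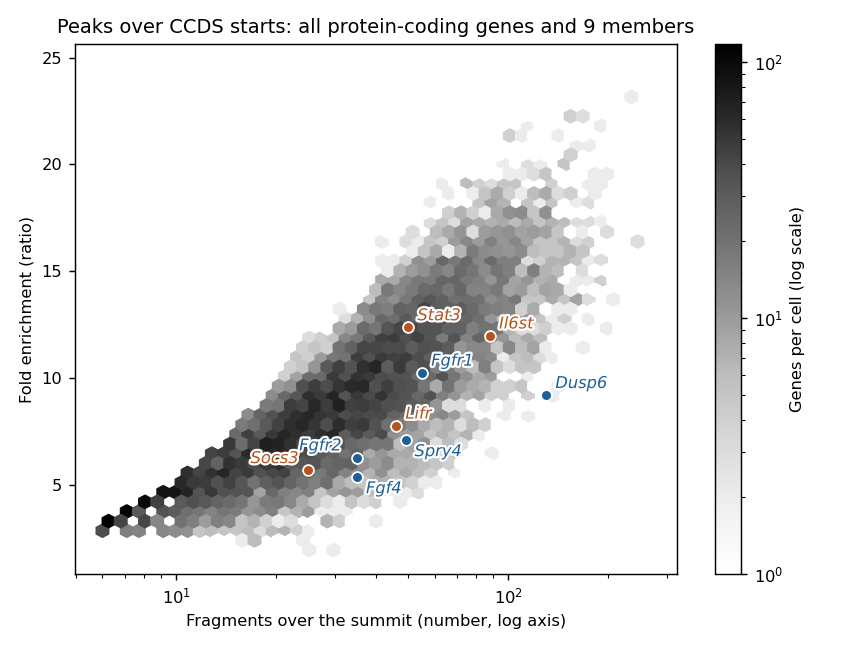
Fold enrichment (ratio) against fragments over the summit (log axis) for peaks over coding starts, with all 13492 genes as grey cells shaded by number and the 9 covered genes as points, orange for the LIF side and blue for the FGF side. Dusp6, at 130 fragments and a fold enrichment of 9.21, lies at the lower right edge of the grey cells, and Stat3, at 50 and 12.4, lies among the higher ones at its number of fragments.

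The surroundings of the genes held many peaks. The windows by coding transcripts had a median of 1.08 peaks per 10 kb, beside 0.650 (quartiles 0.384 to 0.962) over the 20331 genes, and 9 of the 10 lay above that median. Fgf4 stood at the 96.3rd percentile, Socs3 at 92.5, Dusp6 at 91.5, Spry4 at 89.1, Spry2 at 82.7, Fgfr2 at 79.3, Il6st at 72.6, Lifr at 59.2, Fgfr1 at 57.2 and Stat3 at 20.2. Density also differed with gene length, with a median of 0.716 peaks per 10 kb for genes shorter than 20 kb and 0.588 for longer ones. The 5 members shorter than 20 kb (Socs3, Fgf4, Spry2, Spry4 and Dusp6) all lay above the upper quartile of the 11002 genes of that size, 1.09 peaks per 10 kb. Of the 5 longer ones, 4 lay above the median of the 9329 longer genes and 2 above their upper quartile, 0.831. In bases, a median of 7.21% of each window lay in peaks, beside 4.68% over all genes, and Socs3 had the most, 13.9%. The ranks moved when only strong peaks were counted (−log10 q-value 10 or more). Then 7 of the 10 genes lay above the median of all genes. Spry4 fell to the 49.4th percentile and Fgfr2 to 39.8, and Fgf4, Dusp6 and Il6st fell to 87.3, 86.9 and 63.9. Socs3, Spry2, Fgfr1 and Lifr rose to 96.4, 95.5, 82.8 and 78.7. Stat3 rose as well, to 33.7, but stayed below the median.

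**Figure D4:**
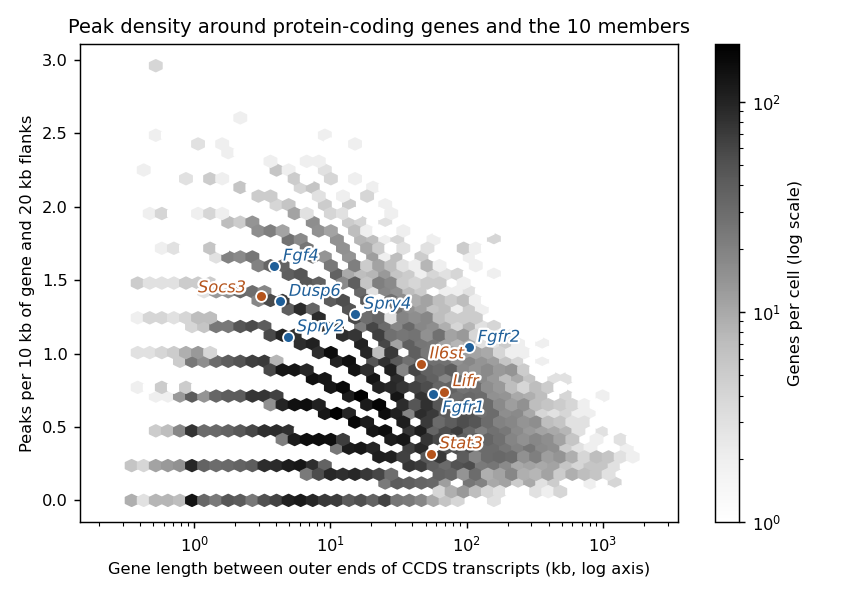
Peaks per 10 kb of gene and 20 kb flanks against gene length in kb (log axis), with all 20331 genes as grey cells shaded by number and the 10 genes as points. The 5 short genes, Fgf4, Socs3, Dusp6, Spry4 and Spry2, lie between 1.11 and 1.60 peaks per 10 kb, and Stat3, at 0.318, is the lowest of the 10.

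Of the 72 peaks in these windows, 23 had their summit upstream of the coding transcripts, 23 in introns, 18 downstream, 3 in 3′ UTRs, 3 in coding exons and 2 in 5′ UTRs. A −log10 q-value of at least 10 was reached by 24 of them (33.3%), beside 22.2% of all peaks. Away from the coding starts, 15 of 63 (23.8%) reached it, beside 15.7% of the other peaks in the genome. Fewer than 10 fragments were found at 31 of the 72 peaks (43.1%), beside 53.7% of all peaks. The 9 start peaks were rich in CpG, with a median GC content of 67.3% and an observed to expected CpG ratio of 0.814, beside 60.6% and 0.715 for all peaks over coding starts. The other 63 had medians of 52.1% and 0.302, beside 48.7% and 0.227. Those upstream of Spry2 (65.1% and 60.3% GC) and Dusp6 (63.7%) had a base composition like that of start peaks, with CpG ratios of 0.79 to 0.81.

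Sequence matches were searched on both strands within 150 bp of each summit. A match is a description of letters and not a binding site. The STAT motif TTCNNNGAA was found in 8 of the 72 peaks (11.1%), beside 8.77% of all peaks. They belonged to 5 genes, with a pair each at Socs3, Spry2 and Spry4 and a single one at Stat3 and Fgf4. At coding starts, 2 of the 9 peaks held it, those of Socs3 and Spry4, beside 5.32% of all start peaks. In the promoter table of RefSeq, which holds 8 of the 10 genes with 9 promoters, Socs3 was the only one with the motif, beside 8.30% of 32851 promoters.

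The matches of the 6 peaks outside Spry4 are printed with 10 bases on each side, the motif in capitals and each on the strand of its gene (mm10), to show how far the letters at N differ. Those of the 2 Spry4 peaks, 1 of them the start peak, are not printed. The printed ones lie at chr11:117969502-117969530 under the Socs3 start peak, at chr11:117975750-117975778 under the Socs3 upstream peak, at chr11:100957463-100957491 upstream of Stat3, at chr14:105897555-105897583 under the Spry2 upstream peak, at chr14:105875609-105875637 downstream of Spry2 and at chr7:144876721-144876749 downstream of Fgf4. No 2 of the 6 printed matches share all their letters. The peaks upstream of Stat3, downstream of Spry2 and downstream of Fgf4 had only 7, 7 and 6 fragments, near the lowest number in the list, 6.
Socs3 start: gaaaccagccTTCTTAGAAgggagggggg
Socs3 upstream: cctctgagttTTCTGGGAAacgccagagg
Stat3 upstream: aggaactgccTTCCGGGAAgccttgtttt
Spry2 upstream: aggtcagtgtTTCCTTGAAactagataaa
Spry2 downstream: cctctgtcttTTCCCTGAAtgtgtccttg
Fgf4 downstream: acctcgcttcTTCCAGGAAgggttagaga

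The motif AAGGTCA, bound by the pluripotency factor ESRRB and related nuclear receptors, was found in 12 of the 72 peaks (16.7%), beside 7.04% of all peaks. It was in none of the 9 start peaks, but only 2.68% of all start peaks held it. Away from the coding starts, 12 of 63 peaks held it, beside 7.58% of the other peaks in the genome. The 12 peaks belonged to 7 genes: 3 peaks of Fgfr2, 2 each of Lifr, Fgf4 and Spry4, and 1 each of Il6st, Fgfr1 and Spry2. Matches at 5 of these peaks are shown in the same way. Of the other peaks, those of Fgfr2 had 7 to 10 fragments, those of Spry4 8 and 11, that of Fgfr1 45 and that of the Fgf4 3′ UTR 21. Matches under these peaks, and a second match in the Lifr intron peak, are not printed. The printed ones lie at chr14:105897568-105897594 under the Spry2 upstream peak, which was the tallest of the 12 with 75 fragments, at chr15:7116949-7116975 under the Lifr upstream peak, chr15:7168064-7168090 in the Lifr intron peak, chr13:112462525-112462551 upstream of Il6st, and chr7:144858107-144858133 upstream of Fgf4.
Spry2 upstream: gggaccctttAAGGTCAgtgtttcctt
Lifr upstream: taagtgacttTGACCTTgtcgaaagct
Lifr intron: ctggggtgcgTGACCTTgacctgcaag
Il6st upstream: agacttttccAAGGTCAcagcaatggg
Fgf4 upstream: taggtcatgcAAGGTCAcactctgagg

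For the other motifs, shares were higher or lower than in all peaks. The octamer was found in 6 of 72 peaks (8.33% beside 5.47%) and SOX in 36 (beside 47.1%). The KLF motif GGGNGTG was in 25 (34.7% beside 25.6%) and the CCAAT box in 21 (29.2% beside 36.1%). The AP-1 motif TGANTCA was in 3 (4.17% beside 9.66%), all at Fgf4 and all in peaks of only 6 or 7 fragments. Of the 9 start peaks, 7 held a GC box (77.8% beside 67.7% of all start peaks) and 5 a CCAAT box (55.6% beside 34.6%). The ETS motif CCGGAAG was in none of the 9, beside 15.2%. The CRE TGACGTCA and the TCF motif CTTTGATC were in none of the 72, beside 0.640% and 1.10% of all peaks.

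The other genes of both pathways, a list of 72, had a peak over a coding start in 66 cases, beside the 66.4% of all genes given above. Their median peak had 35 fragments and a fold enrichment of 7.39, beside 34 and 8.68 over all covered starts. The adaptors and Ras-MAPK kinases were covered in 19 of 19 cases, with a median of 36 fragments, and the ERK response factors in 8 of 8, with a median of 54.5. Other feedback genes were covered in 9 of 10 (median 44), genes on the LIF side in 21 of 24 (median 31), FGF receptors and coreceptors in 3 of 4 (median 21) and FGF ligands in 6 of 7. The covered ligands had the lowest median, 10.5 fragments, and ranged from 9 to 33, beside 35 at Fgf4. The counts of genes per role are too small to rank the roles.

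The uncovered coding starts were those of the cytokines Cntf and Osm and the NF-kappaB cofactor Bcl3 on the LIF side, of the ligand Fgf1, the coreceptor Klb and the ERK inhibitor Spred3. The record start of Spred3 did lie under a peak, with a fold enrichment of 7.22. The nearest peaks lay 145 bp from Osm, 310 bp from Spred3, 537 bp from Fgf1, 645 bp from Bcl3, 12266 bp from Klb and 20331 bp from Cntf. The highest fold enrichments were at Tyk2, a JAK kinase (17.1, 79 fragments), Elk1, an ETS factor phosphorylated by ERK (14.1, 54 fragments), and Rasa1, a Ras GTPase activator (14.0, 136 fragments). The lowest were at Junb, an AP-1 subunit (2.10, 25 fragments), and the ligands Fgf17 (3.23, 14 fragments) and Fgf8 (3.74, 10 fragments).

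**Figure D5:**
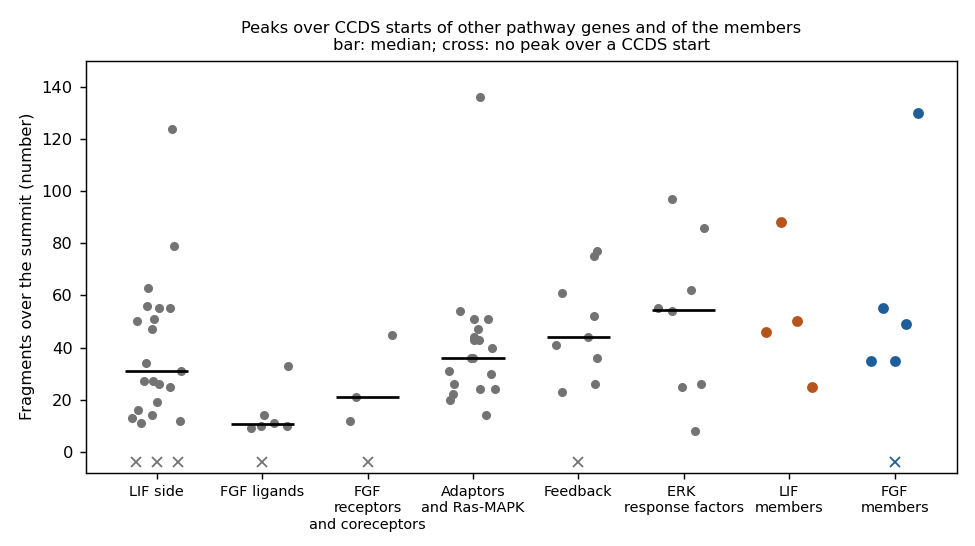
Fragments over the summit of the peak at the coding start for the 72 other pathway genes by role (grey), with the median of each role as a bar, and for the members on the LIF side (orange) and the FGF side (blue). Crosses are genes without a peak over a coding start. The covered FGF ligands lie at 9 to 33 fragments, and the ERK response factors reach 97.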

How the data were processed

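ATAC-seq of EHMT2-dTAG mESCs (DMSO, 24 h) was made from 2 clones. Upstream, the authors pooled technical replicates, used BBMap for trimming and STAR 2.7.10 for alignment to mm10, where a read with several equal locations was kept at 1 of them. Duplicates (Picard 2.26.0) and reads in High Signal Regions were dropped, fragment ends were moved to the Tn5 cut, and peaks were called with MACS2 2.2.6 at a q-value of 0.05. SAMtools 1.14 and bedtools 2.30.0 are named in the submitters' processing notes. The deposited fold enrichment is a ratio, pileup plus 1 over local background plus 1. The deposited −log10 p-value and −log10 q-value are those of the summit, and the deposited summit offset is in bases from the peak start. Library totals and single clones were not analysed here.

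The fragment number and background that give both fold enrichment and p-value under the Poisson formula of MACS2 were calculated with Python 3.11.15, NumPy 2.4.6 and SciPy 1.17.1, and came out whole within 0.01 for 116779 of 116782 peaks (largest deviation 0.120) and were rounded. The calculation was tested on simulated data. Gene records and CCDS transcripts came from GENCODE release 21, and the 116777 peaks outside the mitochondrial genome and other sequences entered the look-up. Where a gene had several covered coding starts, the peak with the most fragments was taken. Windows ran 20 kb beyond the gene. The 11 motifs were searched on both strands, 150 bp either side of the summit, in the mm10 genome. A percentile is the share of covered starts, or of genes, with a lower value. Promoters are those of the RefSeq table (GRCm38.p6, which is mm10). They were found for 8 members, all equal to the genome, and Fgfr1 and Spry4 are named only. With 1 merged list of 1 condition, no test was made.

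The members, motifs and lists were chosen with earlier results of these data known. All 10 members are named, with the peak over the start and the peak of highest fold enrichment elsewhere in the window, and of the other pathway genes those uncovered and the 3 highest and 3 lowest in fold enrichment. Further peaks were named after their values were seen. Alternatives were peaks past a −log10 q-value of 10, a summit within 500 bp or a peak within 1000 bp of the start, any transcript, windows of 10 kb and 50 kb, summits inside the window, ranks by fragments or q-value, leaving out chromosomes 8, X and Y, percent of bases, and motifs in the whole peak or within 50 bp. Coding starts, coding spans and leaving out Fgfr2 were added after the data were seen.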

Additional observations from a re-analysis of the deposited data

How the results depend on the processing

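By gene record, 7 starts were covered, and 4 with a −log10 q-value of at least 10 (Il6st, Stat3, Spry4 and Dusp6), while the other 5 alternatives gave 6 to 10. The share of all genes beside the 7 was 59.2%. No such share was calculated for the 4, for summits within 500 bp or for starts of any transcript, so those counts cannot be set beside all genes. The 231 peaks of the record windows became 58 at that q-value, 72 with coding spans and 61 without Fgfr2. The median percentile at the start, 34.6 by record and fold enrichment, was 68.7 by fragments, 56.9 by q-value, 45.4 without chromosomes 8, X and Y, and with coding starts 41.0 by fold enrichment and 68.8 by fragments. It thus lay on either side of the middle. The median percentile of peak density, 78.3 by record, was 65.6 with windows of 50 kb, 76.8 at the stricter q-value, 72.4 by percent of bases and 81.0 with coding spans, so it stayed above the middle. The STAT motif lay in 24 peaks of the record windows, in 49 with whole peaks, 10 within 50 bp of the summit and 8 with coding spans. Of all peaks, 18.2% held it anywhere and 2.78% within 50 bp.

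No paired analysis was possible because the peaks were called on both clones merged. A value for a single clone cannot be had from such a list. No peak of the list has fewer than 6 fragments, and among the 22 peaks with a background like that around the Spry2 start, 12.9 to 13.7, the lowest number was 27. The lack of a peak over that start or the inner starts of Lifr and Il6st says only that none passed the caller's threshold over its local background. The peak caller reads the local background from the same fragments, and its part in the fold enrichments at Dusp6 and Spry2 was not tested.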
